A study of Mus musculus with 3 samples.

Results

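The JMJD3 peak list of TGFb-treated mouse neural stem cells held 15887 peaks with the midpoint within 1 kb of a transcription start site (TSS). Of these promoter peaks, 1052 shared no base with any of the 98086 Smad3 peaks and are described here. They were 6.62% of the promoter JMJD3 peaks (exact Clopper-Pearson 95% CI 6.24 to 7.02), against 18.6% of all 63154 JMJD3 peaks that shared no base with Smad3. The peaks were chosen by 2 measured values, the bases shared with Smad3 and the distance to the TSS, so these counts are a description with no test. The data went against a reading of the set as promoters free of Smad3. A Smad3 peak lay within 1 kb of 834 of the 1052 peaks (79.3%), and 735 of the 930 genes named as closest to them had a Smad3 promoter peak of their own. The remaining 195 (21.0%) had none, where 3.42% of all 9380 genes with a JMJD3 promoter peak, those of the set included, had none. Among genes with a promoter JMJD3 peak that overlapped Smad3 the share was 1.51%. The rule chose on overlap with Smad3, so this contrast is set in part by the rule. The set is therefore named by its rule, as promoter JMJD3 peaks that shared no base with Smad3.

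Binding was mapped by ChIP-seq, in which DNA pulled down with an antibody is sequenced, in wild-type neural stem cells from the E12.5 mouse cerebral cortex. All libraries shared culture with EGF at 20 ng/ml and FGF at 10 ng/ml and treatment with TGFb at 5 ng/ml, given for 30 minutes before the Smad3 and JMJD3 immunoprecipitations. There was 1 library per antibody and an input library, whose peaks were not analysed here, so no value has a replicate error. No untreated library was analysed, and no effect of TGFb can be read from these lists. How many embryos or cultures went into each library is not stated. The lists carry positions and no peak height or read number, so the depth behind a peak is unknown, and intervals on shares cover counting error only. Of 10 neural stem cell marker genes, 8 had a JMJD3 promoter peak (Fabp7, Hes1, Nes, Pax6, Slc1a3, Sox1, Sox2 and Vim), as did 1 of 5 neuronal, 1 of 4 astrocyte, 0 of 4 oligodendrocyte, 0 of 4 microglial and 1 of 3 endothelial markers. Of all genes named in either list, 57.1% had one, and none of these markers had a peak in the set described here. These are positions of peaks and not levels of expression.

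JMJD3, the product of Kdm6b, removes methyl groups from lysine 27 of histone H3, the mark that Polycomb repressive complexes place on silent developmental genes. It has no sequence-specific DNA-binding domain and reaches promoters through other proteins. Smad3 is phosphorylated by the TGF-beta receptor, enters the nucleus with Smad4, and binds short elements with the letters GTCT or the reverse complement AGAC.

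The peaks fell into 4 classes by their place relative to Smad3. Peaks whose neighbours start at most 10 bp past their end were joined to regions. Edge peaks, 603 in number (57.3%), belonged to a joined JMJD3 region that did overlap a Smad3 peak elsewhere along its length. Adjacent peaks, 231 (22.0%), lay in a region free of Smad3 with a Smad3 peak at most 1 kb away. Intermediate peaks, 76 (7.22%), had their nearest Smad3 peak between 1 and 10 kb away. Isolated peaks, 142 (13.5%, 95% CI 11.5 to 15.7), lay more than 10 kb from any Smad3 peak, and named 118 genes, 1.26% of the 9380 genes with a JMJD3 promoter peak.

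Sequences of 7 isolated promoters are shown. They are those among the genes named below for width, distance from Smad3 or as developmental factors, with an entry in the RefSeq table, whose peak covered all 250 bases upstream of the TSS in the deposited list. Each is the 250 bases before the RefSeq start on GRCm38.p6, with capitals marking CpG dinucleotides. The peaks were called on mm9, and the RefSeq start on the later build may differ from the TSS in the list, so the match is by gene and not by coordinate.
Rgs13, chr1:144177373-144177622, minus strand: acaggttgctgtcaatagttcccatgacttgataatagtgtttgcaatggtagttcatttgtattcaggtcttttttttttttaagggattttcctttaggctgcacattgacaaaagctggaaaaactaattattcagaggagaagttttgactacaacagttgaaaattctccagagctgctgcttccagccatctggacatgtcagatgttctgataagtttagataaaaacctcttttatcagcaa
Oas1c, chr5:120812515-120812764, minus strand: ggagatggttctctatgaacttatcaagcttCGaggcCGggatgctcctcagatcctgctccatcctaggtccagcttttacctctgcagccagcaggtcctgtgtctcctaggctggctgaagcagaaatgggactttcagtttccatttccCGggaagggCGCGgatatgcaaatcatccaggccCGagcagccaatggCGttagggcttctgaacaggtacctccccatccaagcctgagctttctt
Eif2s3y, chrY:1010345-1010594, plus strand: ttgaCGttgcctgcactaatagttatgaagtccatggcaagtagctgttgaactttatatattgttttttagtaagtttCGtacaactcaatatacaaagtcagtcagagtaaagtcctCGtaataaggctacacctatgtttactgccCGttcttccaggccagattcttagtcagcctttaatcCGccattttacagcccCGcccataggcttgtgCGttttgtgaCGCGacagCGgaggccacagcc
Rad51ap2, chr12:11455805-11456054, plus strand: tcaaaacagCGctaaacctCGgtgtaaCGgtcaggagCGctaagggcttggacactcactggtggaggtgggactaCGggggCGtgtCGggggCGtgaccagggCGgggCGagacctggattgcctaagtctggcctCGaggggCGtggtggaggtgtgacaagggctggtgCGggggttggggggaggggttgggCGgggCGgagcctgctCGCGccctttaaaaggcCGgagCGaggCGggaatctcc
Pax9, chr12:56695221-56695470, plus strand: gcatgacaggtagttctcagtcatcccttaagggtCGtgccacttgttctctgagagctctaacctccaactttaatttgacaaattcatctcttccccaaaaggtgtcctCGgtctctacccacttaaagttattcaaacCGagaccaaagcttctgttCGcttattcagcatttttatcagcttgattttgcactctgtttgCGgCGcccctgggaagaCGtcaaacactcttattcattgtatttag
Msx1, chr5:37824586-37824835, minus strand: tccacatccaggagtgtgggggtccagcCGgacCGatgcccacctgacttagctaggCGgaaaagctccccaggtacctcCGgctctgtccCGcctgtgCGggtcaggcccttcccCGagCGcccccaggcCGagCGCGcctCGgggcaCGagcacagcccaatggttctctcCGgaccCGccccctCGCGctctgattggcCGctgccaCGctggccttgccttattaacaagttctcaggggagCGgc
Pou4f1, chr14:104468000-104468249, minus strand: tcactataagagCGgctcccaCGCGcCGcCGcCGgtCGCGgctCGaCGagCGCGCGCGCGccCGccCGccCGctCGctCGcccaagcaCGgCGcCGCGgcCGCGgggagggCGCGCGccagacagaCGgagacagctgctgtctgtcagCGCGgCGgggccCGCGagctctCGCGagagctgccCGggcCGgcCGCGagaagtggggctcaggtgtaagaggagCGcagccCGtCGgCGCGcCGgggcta

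CpG content differed widely between these promoters. Rgs13 had 0 CpG in 250 bases, Oas1c and Pax9 7 each, Eif2s3y 10, Rad51ap2 and Msx1 20 each, and Pou4f1 47, where the median of the 32851 promoters in the RefSeq table was 6. The G and C content ran from 36.0% at Rgs13 to 78.0% at Pou4f1. A Smad box, GTCT on either strand, occurred 1 time in the Rgs13 window, 1 time at Oas1c, 2 times at Rad51ap2, 3 times at Pax9 and 4 times at Pou4f1. No Smad box was found in the Eif2s3y and Msx1 windows. At this length 82.9% of all promoters hold one. The palindromic element GTCTAGAC was found in 0 of the 7 and in 0.167% of all promoters. The GC box GGGCGG, bound by Sp1-family factors, was found in 4 of the 7 windows, with 3 copies at Rad51ap2, 2 at Pou4f1 and 1 each at Eif2s3y and Msx1, and in 32.7% of all promoters.

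A check of base composition over the whole set was void, because the table held a promoter for 721 of the 930 genes (77.5%) and for 84 of the 118 genes of isolated peaks (71.2%), under the 80% required. Edge genes passed that limit, with 448 of 559 (80.1%). Their median ratio of observed to expected CpG, over 300 bases around the start, was 0.804, beside 0.787 for genes whose JMJD3 promoter peak overlapped Smad3 and 0.390 for all genes of the table.

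Most of the peaks lay a short way from Smad3. The median distance between a peak and the nearest Smad3 peak was 120 bp. It was 69 bp for edge peaks, 189 bp for adjacent, 4665 bp for intermediate and 24650 bp for isolated peaks. Of the 1052 peaks, 476 (45.2%) lay within 100 bp of Smad3, 658 (62.5%) within 200 bp and 799 (76.0%) within 500 bp.

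**Figure D1:**
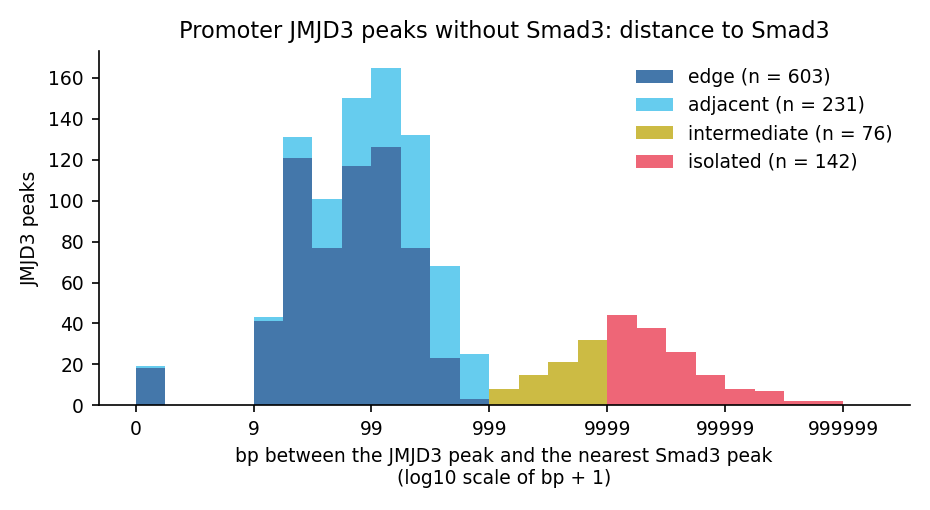
Number of promoter JMJD3 peaks without a shared base with Smad3 (vertical axis) by the number of bases to the nearest Smad3 peak (horizontal axis, log10 scale of bp + 1), coloured by class. Edge and adjacent peaks form a group around 100 bp, and the 142 isolated peaks a tail from 10 kb to 999860 bp.

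At the limits of the rule, peaks inside and outside differed by single bases. The peak at Abhd13 abutted a Smad3 peak with 0 bp between them, as did those at Arhgef11 and Atad5 and 19 peaks in all. The peaks at Ak3, Armcx1 and Arrdc4 shared 1 bp with Smad3 and were not counted. Of the 14835 promoter peaks that overlapped Smad3, 65 (0.438%) did so by at most 10 bp, and the median overlap was 450 bp. At the limit of distance, L3mbtl3 at 1000 bp and Dock1 at 998 bp were included. Maml3 at 1002 bp, the progenitor filament gene Vim at -1005 bp and Psmd5 at 1006 bp were not.

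Edge peaks were short pieces of regions that held both proteins. Their median width was 231 bp within regions of 1110 bp, and the median edge peak made up 21.6% of its region. Of the 603, 585 (97.0%) did not lie between Smad3-overlapping peaks of the region. A place between them exists only in regions with Smad3-overlapping peaks on both sides. Such regions were not counted, so this share is set in part by the class. In 520 (86.2%) a Smad3-overlapping JMJD3 peak of the same region was centred closer to the TSS, and 354 (58.7%) lay downstream of that part in the direction of the gene. Of their 559 genes, 19 had no Smad3 promoter peak, a share near the 3.42% of all genes with a JMJD3 promoter peak.

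Kdm6a, the X-linked paralog of Kdm6b that encodes the H3K27 demethylase UTX, is an example. JMJD3 peaks lay on chromosome X (mm9) at 17739101 to 17739321, 17739331 to 17739691 and 17739701 to 17739900. A Smad3 peak spanned 17739281 to 17739700. It overlapped the upstream pair and ended at the base before the third, so the JMJD3 peak centred 5 bp from the TSS counted as free of Smad3. At Smad2, which encodes a receptor-activated Smad, 4 JMJD3 peaks formed a region of 1580 bp on chromosome 18. The last, at 76401721 to 76402160 and centred 359 bp inside the gene, was the one without Smad3, 130 bp from the Smad3 peak at 76400831 to 76401590. Kdm6b itself had no peak in the set, and neither did Smad3. The JMJD3 peaks nearest the Kdm6b start, at 1531 bp and -1773 bp, and the 4 at the Smad3 promoter all overlapped Smad3 peaks.

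Adjacent peaks lay further into the gene. Their median distance from the TSS was 560 bp, 32.5% were centred upstream of it (95% CI 26.5 to 38.9), and coverage by this class was highest 650 bp into the gene, at 29.9% of peaks. The nearest Smad3 peak was centred closer to the TSS in 166 of 231 (71.9%), and in 172 (74.5%) the gene had another JMJD3 promoter peak that overlapped Smad3. At Neurog2, a proneural factor, the JMJD3 peak at -350 bp overlapped the Smad3 peak at 127335501 to 127335831 on chromosome 3. The pair of JMJD3 peaks centred at 151 and 385 bp lay 269 and 509 bp away from that Smad3 peak. At Nr2e1, which encodes the neural stem cell receptor Tlx, the peaks at 473 and 753 bp lay 40 and 309 bp from Smad3. At Gap43, a growth-cone protein gene, the peak at 478 bp lay 70 bp from Smad3.

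Isolated and intermediate peaks lay closer to the start site than edge and adjacent peaks, at distances like those of peaks that overlapped Smad3. An isolated peak covered the TSS in 78 of 142 cases (54.9%, 95% CI 46.4 to 63.3) and an intermediate peak in 36 of 76 (47.4%, 35.8 to 59.2). For peaks that overlapped Smad3 the share was 56.8%, for edge peaks 5.14% (3.52 to 7.22) and for adjacent peaks 11.7% (7.85 to 16.5). The median distance from the TSS was 158 bp for isolated and 170 bp for intermediate peaks, beside 483 bp for edge peaks and 185 bp for peaks that overlapped Smad3. Shares upstream of the TSS were 50.7% (42.2 to 59.2) for isolated and 69.7% (58.1 to 79.8) for intermediate peaks. Peaks of 1 library are not replicates of a condition, so the classes are given side by side with counting intervals and no test.

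**Figure D2:**
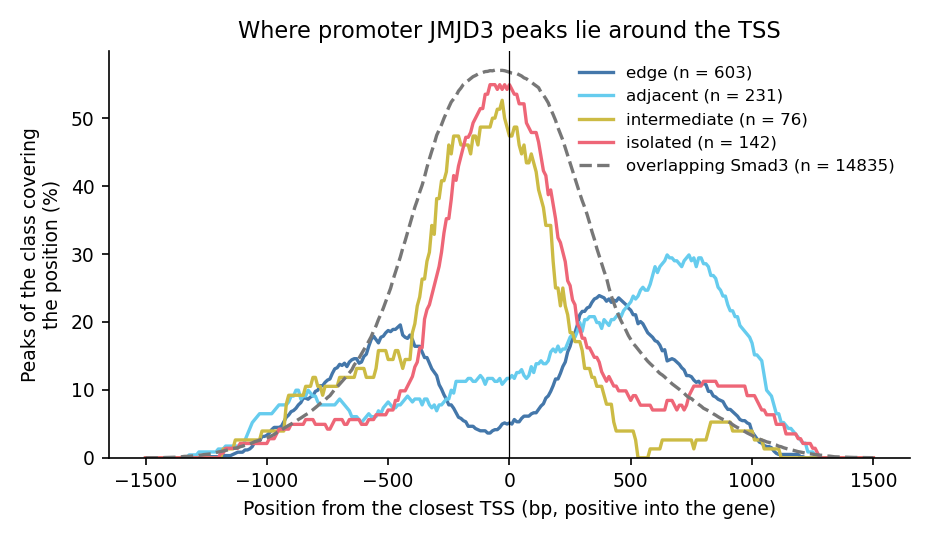
Share of the peaks of each class that cover a position (vertical axis, %) by distance from the closest TSS (horizontal axis, bp, positive into the gene), with peaks that overlapped Smad3 as a dashed line. Coverage by isolated and intermediate peaks is highest near the TSS, at 54.9% and 52.6%. Intermediate peaks reach further upstream, with 14.5% at -500 bp and 3.95% at 500 bp. Edge peaks cover the TSS itself in 5.14%, and adjacent peaks rise to 29.9% at 650 bp.

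Peaks of all 4 classes were narrower than promoter peaks that overlapped Smad3. The median width was 251 bp over the set (quartiles 201 and 390, range 41 to 870), against 530 bp for the 14835 overlapping peaks (341 and 720). It was 231 bp for edge, 281 bp for adjacent, 380 bp for intermediate and 400 bp for isolated peaks. By joined region the order changed. Edge regions were the widest, at 1110 bp, overlapping peaks lay in regions of 930 bp, and isolated peaks in regions of 450 bp. An edge peak by definition shares its region with another peak, so this order follows in part from the classes. Of isolated peaks, 73.2% formed a region alone, beside 35.2% of overlapping peaks. The rule asks for no shared base, so the width of a peak enters it and these widths are a description. Of promoter JMJD3 peaks up to 200 bp wide, 20.4% had no shared base with Smad3, of those over 400 and up to 600 bp wide 4.91%, and of the 706 over 1000 bp 0, which allows a share of up to 0.425% (3 counts of the total). Isolated peaks were 7 of 1241 in the first of these groups, 61 of 4356 in the second and 0 in the last.

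**Figure D3:**
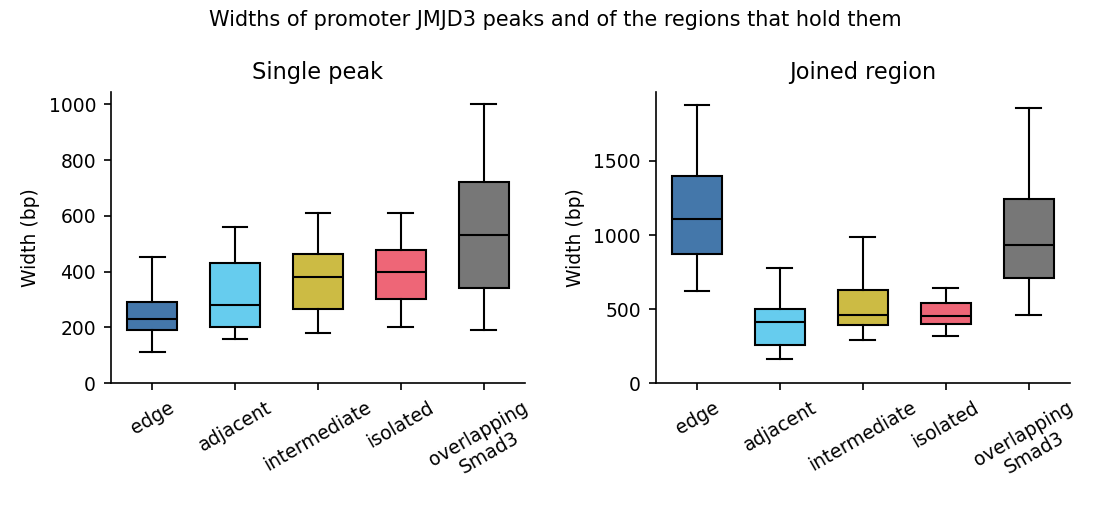
Width in bp of single peaks (left) and of the joined regions that hold them (right) for the 4 classes and for promoter JMJD3 peaks that overlapped Smad3. Boxes span the quartiles with the median as a line, and whiskers the 5th to 95th percentile. Edge peaks are the narrowest single peaks (median 231 bp) in the widest regions (1110 bp), which by definition hold another peak.

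The share of JMJD3 peaks without Smad3 was higher at greater distances from the TSS. It was 2.86% (95% CI 2.52 to 3.23) within 250 bp of a TSS, 9.27% (8.36 to 10.3) beyond that up to 500 bp and 14.0% (12.8 to 15.2) beyond 500 and up to 1000 bp, and 24.8% (24.2 to 25.4) beyond 50 kb. Within 250 bp, edge peaks were 0.816% of all JMJD3 peaks and isolated ones 1.02%. Beyond 500 and up to 1000 bp edge peaks were 8.68% and isolated ones 0.862%. Farther out, edge peaks ran between 3.12% and 4.25%. Isolated peaks made up 0.894% (0.753 to 1.05) of promoter JMJD3 peaks and 8.39% (8.14 to 8.64) of those farther than 1 kb from a TSS.

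**Figure D4:**
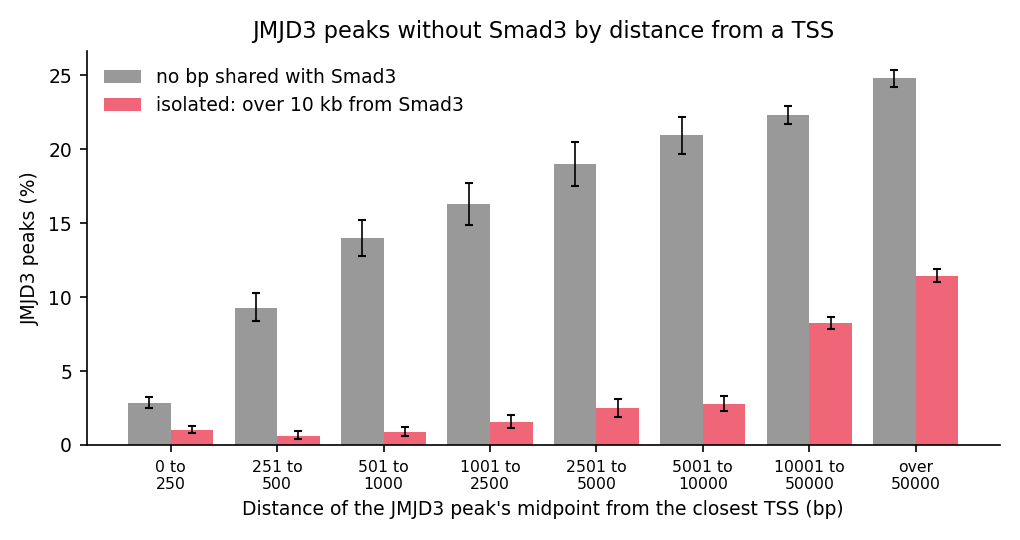
Share of JMJD3 peaks (vertical axis, %) that shared no base with Smad3 (grey) and that lay over 10 kb from it (red), by distance of the midpoint from the closest TSS (horizontal axis, bp). Error bars are exact 95% binomial intervals. The grey share rises from 2.86% to 24.8%, and the red share stays between 0.624% and 1.02% up to 1000 bp and reaches 11.4% beyond 50000 bp.

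The mirror set had another make-up. Of 24930 Smad3 promoter peaks, 7252 (29.1%, 95% CI 28.5 to 29.7) shared no base with JMJD3. Edge peaks were 13.8% of these and peaks over 10 kb from any JMJD3 peak 35.5%, against 57.3% and 13.5% for JMJD3. The Smad3 list is longer, so these shares were not tested against each other.

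Isolated peaks have no Smad3 peak at their own start site by definition, and 113 of their 118 genes had no Smad3 promoter peak at any listed start. Smad3 peaks at any distance named 57 of these genes and never named the other 61. Over all genes with a JMJD3 promoter peak, 321 had no Smad3 promoter peak, of which 195 had a peak in the set. The 142 peaks formed 124 regions. In 120 of these the stretch between the flanking Smad3 peaks could be measured, with a median of 94754 bp. In 83 of the 124 the region was the sole JMJD3 region in its stretch. The class asks for more than 10 kb to Smad3 on either side, so long stretches follow from it. These values were not computed for other JMJD3 regions, so they have no background.

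Genes farthest from Smad3 were of several kinds. The farthest peak of all, at 999860 bp, named the predicted gene Gm3020, and predicted genes are left out of what follows. Prrg1 (Entrez 546336), a vitamin K-dependent membrane protein gene on chromosome X, had a JMJD3 peak at 75828971 to 75829420, centred 39 bp inside the gene and 787489 bp from the nearest Smad3 peak. Jph1 (57339), which links the plasma membrane to the sarcoplasmic reticulum in muscle, had a pair of peaks at 17087741 to 17088091 and 17088101 to 17088300 on chromosome 1, 408660 and 409020 bp away. Tbx3 (21386), a T-box factor of limb and heart, had 1 promoter peak at 120120481 to 120121050 on chromosome 5, centred 85 bp from the TSS and 280150 bp from Smad3. Further genes were Eif2s3y at 235030 bp, Nudt10 at 226020 to 227260 bp, the non-classical MHC gene H2-M3 at 191049 bp, the AMPA receptor gene Gria3 at 176210 bp, Hs6st2 at 134840 bp and Oas1c at 131819 bp. Of these 9 genes, Smad3 peaks named Tbx3 and Gria3 and none of the other 7. Chromosome X holds 4 of the 9 and Y 1. Of the 15887 promoter JMJD3 peaks, 338 were on X and 1 on Y, and of the 142 isolated ones 14 and 1. The lists also had fewer Smad3 peaks per JMJD3 peak on X and Y (1.39 and 0.714) than over all chromosomes (1.55). The part of that ratio in these distances was not tested.

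Of the 10 widest peaks of the set, predicted genes left out, 9 were isolated, adjacent or intermediate and 1 was an edge peak. Rgs13 (246709), a regulator of G-protein signalling in lymphocytes, had the widest, 870 bp on chromosome 1 from 146024191 to 146025060, and its nearest Smad3 peak lay 32960 bp away. Epha10, a receptor of ephrins, followed with 760 bp, 330 bp from Smad3, and Cacng5, an auxiliary subunit of AMPA receptors, with 730 bp, 10239 bp away. Crtc3 and Ankmy1, adjacent to Smad3, had 720 and 710 bp. Atp8b3 and the muscle cadherin gene Cdh15 were intermediate, with 710 and 640 bp. Pi4k2b had 680 bp and Rad51ap2, which encodes a partner of the meiotic recombination machinery, 640 bp, both isolated. Rab3gap2 had the widest edge peak, 631 bp.

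Developmental transcription factors were among the isolated genes. This group was put together by symbol after the values were seen, from homeobox, T-box, paired, POU, forkhead, Sox and like families. The group counted the ETS factor Fev and left out the adjacent genes Neurog2 and Nr2e1, so its shares by class depend on the choice of symbols. It held 8 of the 118 isolated genes (6.78%), against 60 of 9380 (0.640%) of genes with any JMJD3 promoter peak, 2 of 60 (3.33%) among intermediate genes, 2 of 200 (1.00%) among adjacent genes, 3 of 559 among edge genes and 51 of 9141 among genes of overlapping peaks. No test was made. Besides Tbx3 they included Pax9, Msx1, Pou4f1, Pou4f2 and Tbx19. Pax9, a factor of tooth and thymus, had a peak of 630 bp centred at -188 bp, 58029 bp from Smad3. Msx1, a homeobox factor of the dorsal midline and craniofacial mesenchyme, had 380 bp at -126 bp, 54900 bp away. The sensory neuron factors Pou4f1 and Pou4f2 had 430 bp at -179 bp and 330 bp at 255 bp, 13820 and 55129 bp away. Tbx19, a pituitary factor, had 450 bp at -441 bp, 25800 bp away. Smad3 peaks farther out named Tbx3, Pax9, Pou4f1, Pou4f2 and Tbx19, and no Smad3 peak named Msx1.

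Further isolated genes are given as single examples, picked after the values were seen and with no count of their kind. In the neuronal gene list described below, 12 genes had a JMJD3 promoter peak and 0 had an isolated one. The sodium channel gene Scn3a had a peak of 360 bp at -21 bp, 52920 bp from Smad3. The calcium channel gene Cacna1d had 500 bp at -338 bp, 125130 bp away. Slc6a3, the dopamine transporter, had 391 bp at -77 bp, 20740 bp away. Homer2, a scaffold of glutamate synapses, had 3 peaks between 165 and 960 bp, 16309 to 17159 bp away. The guidance ligand gene Slit2 had a pair of peaks at -96 and 159 bp, 98239 and 98000 bp away, in a stretch of 1645500 bp between Smad3 peaks. Cacna1c, with a peak at -698 bp that lay 19520 bp from Smad3, differed from these in that its gene had a Smad3 promoter peak at another listed start.

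Intermediate peaks named 60 genes, 47 of them without a Smad3 promoter peak. Fev, an ETS factor of serotonergic neurons, had 3 peaks at -409, -549 and -683 bp, 4560 to 4840 bp from Smad3. Pde2a, a cyclic nucleotide phosphodiesterase, had 3 from -643 to 1 bp, 3400 to 4149 bp away. Igf2r, the receptor that clears IGF2, had 1 of 500 bp at -138 bp, 9619 bp away. Mb, which encodes myoglobin, had 1 of 530 bp at -78 bp, 3220 bp away.

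In 12 lists of pathway and cell type genes, peaks of the set were about as frequent as over all genes with JMJD3 at the promoter, and most were edge peaks. Of 188 list genes with a JMJD3 promoter peak, 21 (11.2%) had a peak in the set, against a background of 9.91% of genes (930 of 9380). In 15 of the 21 all such peaks were edge peaks. Over the whole set 559 of the 930 genes had an edge peak, and edge peaks were 57.3% of peaks. TGF-beta pathway genes counted 3 of 31 (Smad2, the latent TGF-beta binding protein gene Ltbp1 and the ubiquitin ligase gene Smurf2), all edge. Immediate early genes counted 4 of 27 (Dusp5, Ier3, Jund and Nr4a2), all edge, and H3K27 demethylation and Polycomb genes 3 of 24 (Kdm6a, Ezh1 and Phf19). Neural stem and progenitor genes counted 1 of 27, Nr2e1, cell cycle genes 1 of 29, Cdc25c, and neuronal genes 2 of 12, Gap43 and Neurog2. NF-kappaB and inflammatory genes counted 1 of 14 (Relb), astrocyte and oligodendrocyte genes 1 of 6 (Slc1a2), other-lineage genes 1 of 3 (Mb), and germline and Hox genes 0 of 3 and 0 of 1.

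Interferon-stimulated genes had 4 of 11 (36.4%), the highest share among lists with more than 3 genes at the JMJD3 promoter. Stat2, which carries interferon signals, had an edge peak at -809 bp, 399 bp from Smad3. The antiviral GTPase gene Mx2 had one at -935 bp, 120 bp away, and the peptide transporter gene Tap1 one at 307 bp, 89 bp away. Oasl2, of the oligoadenylate synthetase family, was the single list gene with an isolated peak, 570 bp wide, centred at 730 bp and 37660 bp from Smad3. The counts are small, and no set test was made.

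Chromosome X held the largest share among the autosomes and X. Of 338 promoter JMJD3 peaks on X, 38 (11.2%, 95% CI 8.08 to 15.1) shared no base with Smad3, against 6.52% (6.14 to 6.92) on the other chromosomes, and 14 (4.14%, 2.28 to 6.85) were isolated, against 0.823% (0.687 to 0.978). The autosomes ran from 4.30% on chromosome 9 to 8.99% on chromosome 12. Chromosome X also had a ratio of 1.39 Smad3 peaks for each JMJD3 peak in the lists, where the autosomes ran from 1.48 to 1.66. Chromosome Y had 1 promoter JMJD3 peak, that of Eif2s3y. The part of that ratio in the result was not tested.

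**Figure D5:**
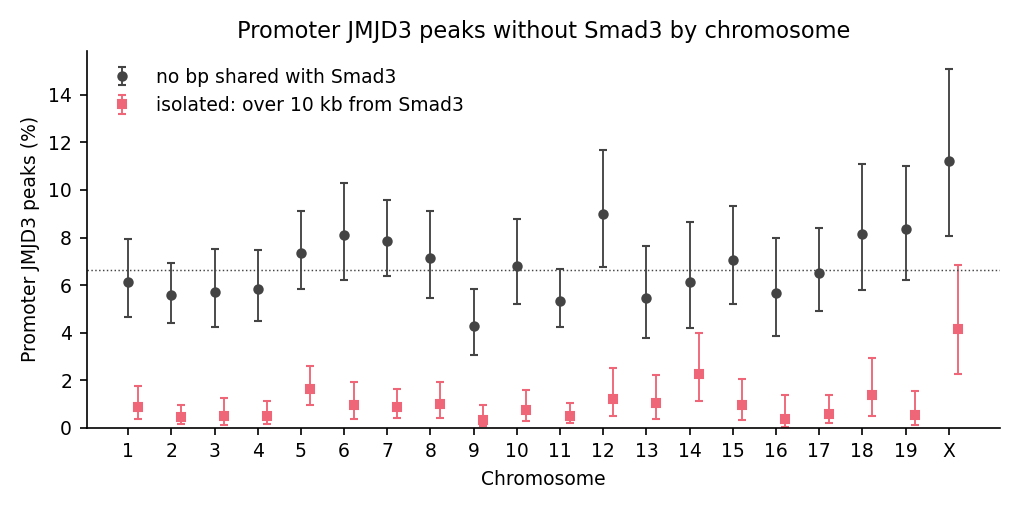
Share of promoter JMJD3 peaks (vertical axis, %) on each of the 19 autosomes and X (horizontal axis) that shared no base with Smad3 (grey circles) and that were isolated (red squares), with exact 95% binomial intervals. The dotted line is the share over all chromosomes, 6.62%. Chromosome X is highest for both, at 11.2% and 4.14%.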

How the data were processed

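Peak lists from 1 Smad3 and 1 JMJD3 ChIP-seq library were used. CASAVA, Bowtie 0.12.7 and MACS 1.4 and the build mm9 are named per the submitters' processing notes. Which tool did what, at which thresholds and with what use of the input, is not stated there. Per the file headers, the lists give positions, the signed distance from the closest RefSeq TSS to the peak's midpoint, and that gene. The deposited lists used here hold no height or read number.

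Overlaps and distances were computed with numpy 2.4.6 and pandas 2.3.3, and checked on simulated intervals against a brute-force count and bedtools 2.31.1. Peaks were joined to regions where the next start lay at most 10 bp past an end. Intervals are exact Clopper-Pearson 95% (scipy 1.17.1). They treat peaks as independent, though the 1052 peaks lay in 947 joined regions, so they may be too narrow. With 1 library per antibody no test was made. The members, lists and classes were chosen with earlier results of these data known. Named genes, skipping predicted genes, clones and small RNAs, were the 10 widest peaks, the 10 farthest from Smad3, up to 10 genes with peaks in separate regions, list members, 3 peaks on each side of each limit, Kdm6b and Smad3. Others were chosen after their values were seen. A few genes that the rule names are not reported here. Of 930 gene IDs, 927 matched a RefSeq table of GRCm38.p6, used for names and promoter sequences only. No sequence was read at mm9 coordinates. Alternatives, some chosen after seeing the data, changed the overlap rule, the TSS window and the peaks used.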

Additional observations from a re-analysis of the deposited data

How the results depend on the processing

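The count of 1052 peaks (6.62%) depended on how overlap was judged. Requiring no Smad3 peak within 200, 1000 or 10000 bp left 394 (2.48%), 218 (1.37%) and 142 (0.894%) peaks. Judging each joined JMJD3 region as a whole left 449 (2.83%). TSS windows of 500 and 250 bp gave 598 (4.73%) and 256 (2.86%), and 2500 bp gave 1519 (8.10%). With only the wider 50% of Smad3 peaks kept, ranked by the width of their joined region, there were 3887 (24.5%). The same cut on JMJD3 peaks gave 549 (4.97%). With the Smad3 list shortened to the length of the JMJD3 list by region width, an alternative chosen after seeing the data, there were 2399 (15.1%). Both lists held 0 duplicate intervals, so counting distinct intervals was the same count. The number of isolated peaks rose from 142 to 2098 when the narrower 50% of Smad3 peaks by joined region width were left out, also added after seeing the data. By joined region the median width of 251 bp became 790 bp, beside 930 bp in place of 530 bp for overlapping peaks. Genes with such a peak and no Smad3 promoter peak numbered 195, and 180 and 164 with Smad3 windows of 2500 and 5000 bp. The share upstream of the TSS was 44.1%, and 45.5% within 500 bp. For edge genes, the share of promoters with an observed to expected CpG ratio over 0.6 was 80.6%, and 76.3% in the 250 bases before the start alone, where the median ratio was 0.774, beside 0.756 for overlapping genes. Over the whole set that check was void in either window. No paired analysis was possible because each antibody has 1 library.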

Other observations

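Some genes had several peaks of the set. Of the 930 genes, 111 had 2 or more such peaks and none had more than 3, and in 14 named genes the peaks lay in separate regions. The set had 1052 peaks at these 930 genes, beside 14835 promoter peaks that overlapped Smad3 at 9141 genes. How many of the 9141 had 2 or more was not counted. Pi4k2b, a phosphoinositide kinase gene, had 3 isolated peaks centred at 6, 240 and 865 bp and no Smad3 peak naming it. Myo1d, a class I myosin gene, had a peak on either side of its start at -88 and 946 bp, of 610 and 600 bp, 29570 and 30610 bp from Smad3. Pdcd4, a translation inhibitor gene, had peaks at -978 and 67 bp, 11350 and 10300 bp from Smad3, and its gene had a Smad3 promoter peak at another listed start. Khdrbs3, an RNA-binding splicing regulator, combined an edge peak at -582 bp with adjacent peaks at 539 and 903 bp.

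Some isolated genes were neighbours. Rgs13 and Rgs1 on chromosome 1, both regulators of G-protein signalling in immune cells, named the same nearest Smad3 peak at 146058021 to 146058370, which lay between their JMJD3 peaks, 32960 and 37620 bp away. Dtx1, a Notch pathway gene, and Oas1c on chromosome 5 lay in the same stretch of 435359 bp without Smad3, which held 3 JMJD3 regions. Zinc finger genes with Zfp symbols were 5 of 118 isolated genes (Zfp493, Zfp551, Zfp57, Zfp583 and Zfp641), 4.24%, beside 0 of 60 intermediate genes, 3 of 200 adjacent genes and 1.96% of all genes with a JMJD3 promoter peak. That family was chosen after its values were seen and was not tested.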
